A study of Mus musculus with 8 samples.

Results

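The nuclear genes whose products build complexes II to V of the respiratory chain, together with cytochrome c, were followed in skin fibroblasts of mice that carry a variant of Nd2, a subunit of complex I. Members were all probes of the array whose gene symbol begins with Uqcr, Cox4 to Cox8 or Atp5, is 1 of the Sdh genes of complex II, or equals Cyc1 or Cycs. The rule found 54 probes of 44 symbols among the 25697 probes and 18138 symbols of the array. Of these probes, 6 belonged to complex II, 7 to complex III, 2 to cytochrome c, 19 to complex IV and 16 to complex V. The other 4 carried the symbols Cox4nb, Atp5s and Atp5sl, which the rule matches by their first letters although their products are not subunits, and they are given separately.

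Each of the 8 arrays, MouseRef-8 v2.0 bead arrays of probe intensities, held RNA of the fibroblasts of 1 mouse aged 12 months, cultured to the first passage and the labels name no treatment. The Nd2 mutant strain was C57BL/6J-mtALR/LtJ (mice 28 and 32, male, and mice 34 and 35, female), whose mitochondrial DNA exchanges a leucine of Nd2 for methionine. The control strain was C57BL/6J-mtAKR/J (mice 16 and 17, male, and mice 15 and 37, female). Both are conplastic, that is, bred to carry the C57BL/6J nuclear genome by repeated backcrossing of females that supplied the mitochondria. By this breeding the members, all of them nuclear genes, come from the same nuclear genome in both strains. Whether the nuclear genomes were identical was not examined here. No probe was found for the subunits of complexes III to V that mitochondrial DNA encodes, and these were not analysed here.

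Complex II (succinate dehydrogenase) passes electrons from succinate to ubiquinone, complex III passes them from ubiquinone to cytochrome c, and complex IV passes them from cytochrome c to oxygen. Complexes III and IV pump protons as they do so, and complex V (ATP synthase) uses the gradient, which complex I also feeds, to make ATP. In fibroblasts, as in most cells, the nuclear subunits are expressed throughout life, and some subunits of complex IV exist as a general form and a form restricted to muscle, lung or testis.

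A probe counted as detected on an array at a detection p-value under 0.01, and only probes detected throughout 1 strain or the other (4 of 4 arrays) were tested. Of the 54 member probes, 41 of 36 symbols were tested, and 10 were detected on no array. Between 39 and 43 member probes were detected per array, the fewest on that of control mouse 15. That array stood apart: over all tested probes its mean correlation with the other arrays was 0.934, against 0.963 to 0.974 for the rest. All 11 fibroblast marker genes on the array, of 12 listed, were detected on 8 of 8 arrays. Their summed intensity ranged from 37876 to 44774 in Nd2-mutant and from 32120 to 47683 in control mice, with the highest sum in mouse 15. Mouse 15 was highest for 6 of the 12 tested probes of these markers (26.5% of all tested probes) and lowest for 1, that of Vim, at 2068.

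The summed markers of 2 other kinds of cells were also highest in mouse 15. The summed intensity of 9 skeletal muscle markers was 2858 there and at most 1841 in the other 7 mice, with Ckm, Myh2 and Myh4 detected on no array. Of the 3 muscle markers detected on 8 of 8 arrays, the fast muscle myosin light chains Myl1 and Mylpf were highest in mouse 15, at 1740 and 168. Acta1, skeletal muscle actin, was not: it stood at 755 there and ranged from 242 to 1198 in the other 7 mice. The summed intensity of 6 endothelial markers was 484 against at most 355. Of the 4 tested endothelial probes, only 2 were highest in mouse 15, those of Cdh5 and Pecam1. Emcn was highest in control mouse 16, and Tek in Nd2-mutant mouse 35. The macrophage sum was highest in Nd2-mutant mouse 35, at 4482, and keratinocyte sums ranged from 195 to 1185 in Nd2-mutant and from 325 to 950 in control mice. Adipocyte and brown adipocyte sums stayed at or below 14.3 on 8 of 8 arrays. Whether such cells had a part in the values of the members was not tested, and a change in the RNA of each cell and a change in the number of cells of a type cannot be told apart in these samples.

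None of the 41 tested probes differed between the strains at an adjusted p under 0.05 (limma, Benjamini-Hochberg adjustment over 10414 probes), and over all tested probes that share was 0.0%. At an unadjusted p under 0.05 the count was also 0 of 41, where 7.63% of all tested probes passed (4.5% higher and 3.13% lower in Nd2 mutant). No member probe separated the strains without overlap, against 4.37% of all. The smallest adjusted p of a member was 0.648, for Cox4i1. At most 1 member probe passed an unadjusted p under 0.05 under any other setting. A Cox6a1 probe, higher in Nd2 mutant, did so on the linear scale (6.02% of all) and with no filter on detection (6.18% of all). An Atp5j probe, also higher, did so without control mouse 17 (14.0% of all) and the Cox6a2 probe, lower, without control mouse 37 (10.8% of all).

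The fold changes were small. On the scale of log2 of the intensity plus 16, the difference Nd2 mutant minus control had a median of 0.09 over the 41 probes, with 31 higher and 10 lower in Nd2 mutant, and ranged from -0.29 (Atp5e) to 0.56 (Atp5f1). Over all tested probes the median was 0.00 and 50.2% were higher. The 95% interval lay within a 2-fold change for 39 of the 41 member probes (89.0% of all probes) and within a 1.5-fold change for 24 (51.1% of all). The exceptions to the 2-fold limit were Atp5f1 and Atp5o.

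The lean towards higher values in Nd2 mutant rested on 1 control array. Without control mouse 15, 42 member probes were tested, 18 were higher and 24 lower in Nd2 mutant, and the median was -0.05, beside 47.9% higher among all tested probes. In that comparison 0 of 42 passed an adjusted p under 0.05 (0.0% of all) and 0 passed an unadjusted p under 0.05 (7.91% of all). All 42 intervals then lay within a 2-fold change and 35 within a 1.5-fold change.

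**Figure D1:**
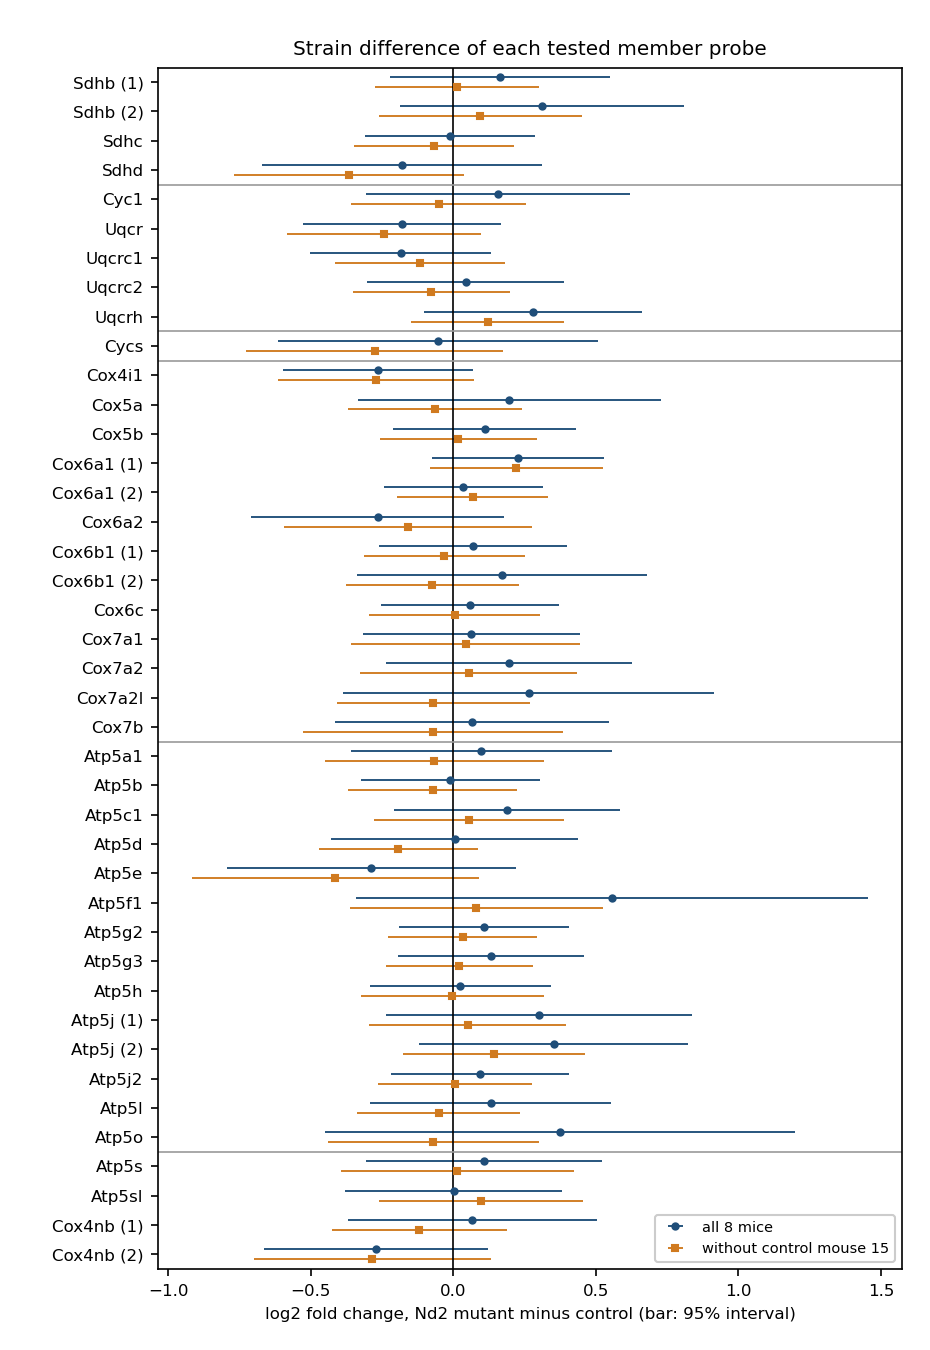
Strain difference of each tested member probe. The x axis gives the log2 fold change, Nd2 mutant minus control, with its 95% interval from limma, for all 8 mice (circles) and without control mouse 15 (squares), and grey lines part complexes II, III, cytochrome c, IV, V and the 4 probes that are not subunits, from top to bottom. All 41 intervals over 8 mice contain 0, and the widest, that of Atp5f1, reaches 1.46.

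Mouse 15 had the lowest of the 8 values for 28 of the 41 member probes (68.3%), while this array was lowest for 31.4% of all tested probes. It lay below the mean of the 8 arrays for 35 of the 41 (52.6% of all). The share was 12 of 14 probes of complex V, 8 of 13 of complex IV, 3 of 5 of complex III, 3 of 4 of complex II and the single tested probe of cytochrome c. Among the subunits of complex I it was 31 of 39.

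Averaged over the 41 probes, the log2 intensity of mouse 15 lay 0.43 below the mean of the 8 arrays (a deviation of -0.43), while the other 7 mice lay between 0.03 and 0.10 above it. The deviation of mouse 15 was -0.62 for complex V, -0.49 for complex II, -0.33 for complex IV and -0.30 for complex III. It was -0.38 for complex I and -0.03 for all tested probes. Quantile normalization keeps the mean over all probes nearly equal between arrays, so the last value was largely set in advance. The other 7 mice were close together: the 4 Nd2-mutant mice had means between 0.03 and 0.06 and the control mice 16, 17 and 37 between 0.08 and 0.10. The median SD of a member probe was 0.14 in Nd2-mutant mice and 0.33 in control mice (log2, n = 4 each), and 0.18 in control mice without mouse 15. Over all tested probes these values were 0.18, 0.29 and 0.20, and for complex I 0.12, 0.28 and 0.13, so a wider spread in control mice was not particular to the members.

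**Figure D2:**
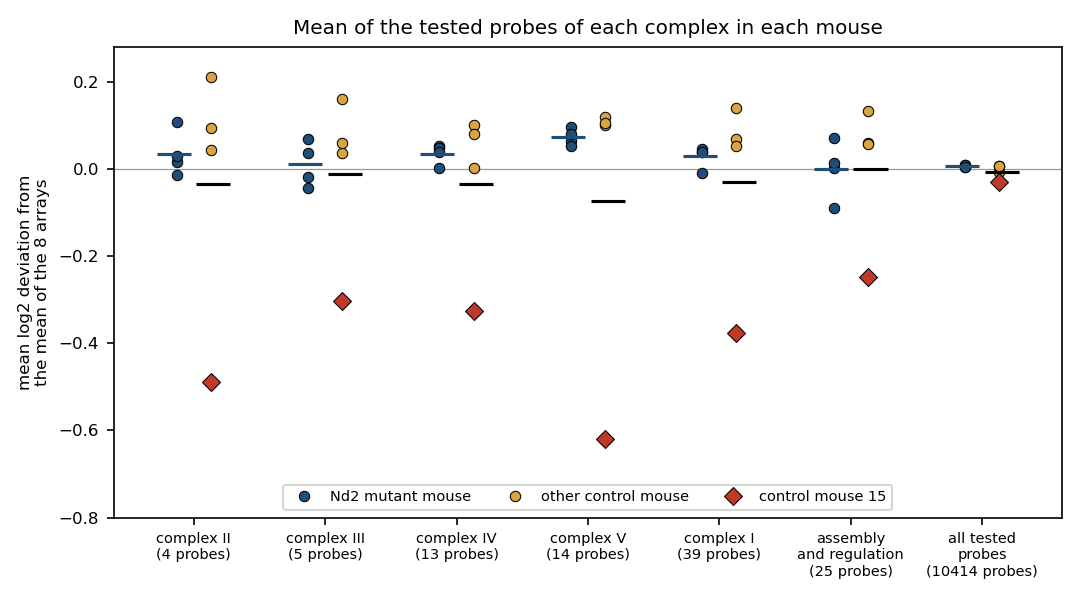
Mean of the tested probes of each complex in each mouse. The y axis gives the mean log2 deviation from the mean of the 8 arrays, circles and diamonds are single mice and bars are strain means (n = 4). Control mouse 15 lies lowest in every group, at -0.62 for complex V, and the other 7 mice lie between -0.04 and 0.21 for complexes II to V.

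The members varied together across the mice mainly through that array. The median Pearson correlation between pairs of member probes over the 8 arrays was 0.39, and it was 0.66 within complex V, 0.37 within complex II, 0.16 within complex IV and 0.15 within complex III. Without mouse 15 these medians were -0.01, -0.01, -0.27, -0.07 and -0.13. Over all pairs of tested probes the median was 0.00 with and without it. The members were not alone in this. The median was 0.50 among subunits of complex I and 0.24 among genes that assemble or regulate complexes II to V. Without mouse 15 these values were 0.08 and 0.07. All pairs share the same 8 arrays, so the values are descriptions.

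**Figure D3:**
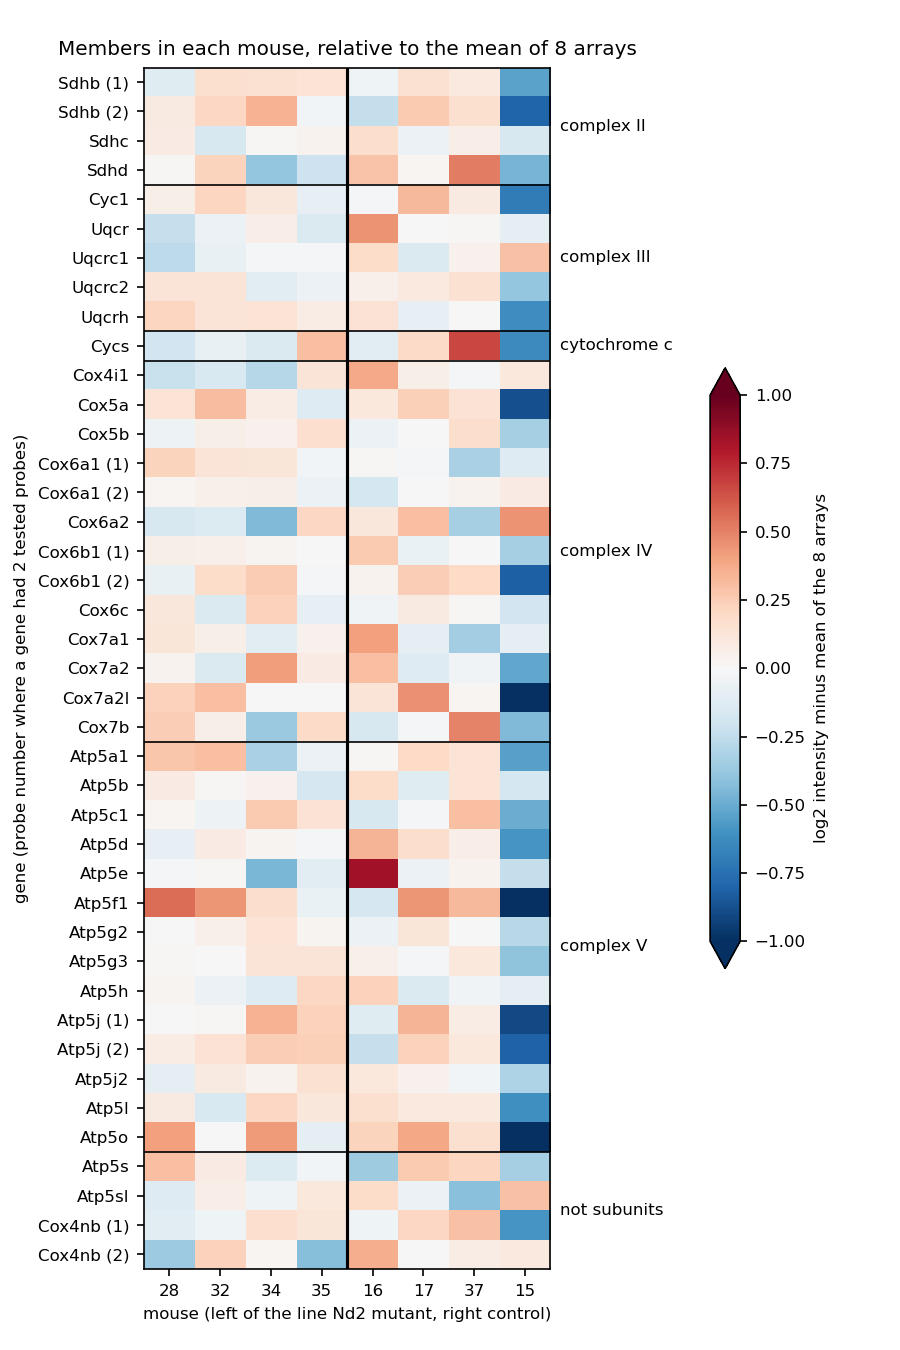
Every tested member probe in each mouse. Rows are probes grouped by complex, columns are mice (Nd2 mutant 28, 32, 34, 35, then control 16, 17, 37, 15), and the colour gives log2 intensity minus the mean of the 8 arrays, with values beyond 1 drawn at the end of the scale. The column of mouse 15 is blue (below the mean) in 35 of the 41 rows, and 28 rows have their lowest value there.

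Promoter sequence of the members was examined as a description. Whether any motif had a part in the low values of mouse 15 was not tested. RefSeq promoter windows (build GRCm38.p6, from 250 bases before to 50 bases after the start site) were matched for 33 of the 44 symbols, in 37 windows, with 5 symbols updated to their current form. Known regulators of respiratory genes are NRF1, the ETS factor GABP and YY1. On either strand, the NRF1 motif (GCGC, then A and any base, then GCGC) was found in 9 of the 37 windows (24.3%), against 6.38% of 21262 windows of protein-coding genes. The ETS motif CCGGAAG was found in 11 (29.7%, against 11.6%) and the YY1 motif AAGATGG in 5 (13.5%, against 6.24%). At least 1 of the NRF1 and ETS motifs was found in 16 windows (43.2%, against 16.7%). The windows of Atp5sl, which is not a subunit, overlap and hold the same YY1 match, which is counted in each. Over the 34 windows of subunits and cytochrome c alone the shares were 26.5% for NRF1, 32.4% for ETS and 8.82% for YY1. In the 31 windows of complex I subunits the shares were 19.4% for NRF1, 12.9% for ETS and 22.6% for YY1.

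Among the tested members, Sdhd, Cox6a1 and Atp5h were those with both an NRF1 and an ETS match upstream of the start site within the stretch printed. Their 170 bases before the start site are shown 5′ to 3′ on the strand of the gene, the minus strand in all 3, with the matches in capitals. They lie at chr9:50603850-50604019 for Sdhd, chr5:115348959-115349128 for Cox6a1 and chr11:115419920-115420089 for Atp5h.
Sdhd: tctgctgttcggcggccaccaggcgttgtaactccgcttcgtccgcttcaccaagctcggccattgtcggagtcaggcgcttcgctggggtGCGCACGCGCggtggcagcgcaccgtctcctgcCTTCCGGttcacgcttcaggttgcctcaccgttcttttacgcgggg
Cox6a1: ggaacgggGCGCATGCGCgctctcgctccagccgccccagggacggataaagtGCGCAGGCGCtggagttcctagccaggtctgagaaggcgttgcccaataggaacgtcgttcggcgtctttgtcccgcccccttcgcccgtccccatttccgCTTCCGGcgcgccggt
Atp5h: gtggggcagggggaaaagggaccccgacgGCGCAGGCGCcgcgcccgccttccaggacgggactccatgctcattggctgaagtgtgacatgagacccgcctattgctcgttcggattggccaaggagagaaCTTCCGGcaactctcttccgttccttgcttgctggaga
The NRF1 match began 79 bases before the start site in Sdhd, 162 and 117 in Cox6a1, and 141 in Atp5h, and the ETS match 46, 16 and 38 bases before it. The 3 genes did not behave alike in mouse 15: Sdhd was lowest there, whereas Cox6a1 and Atp5h were not. A match is a run of letters and does not show that a factor was bound.

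**Figure D4:**
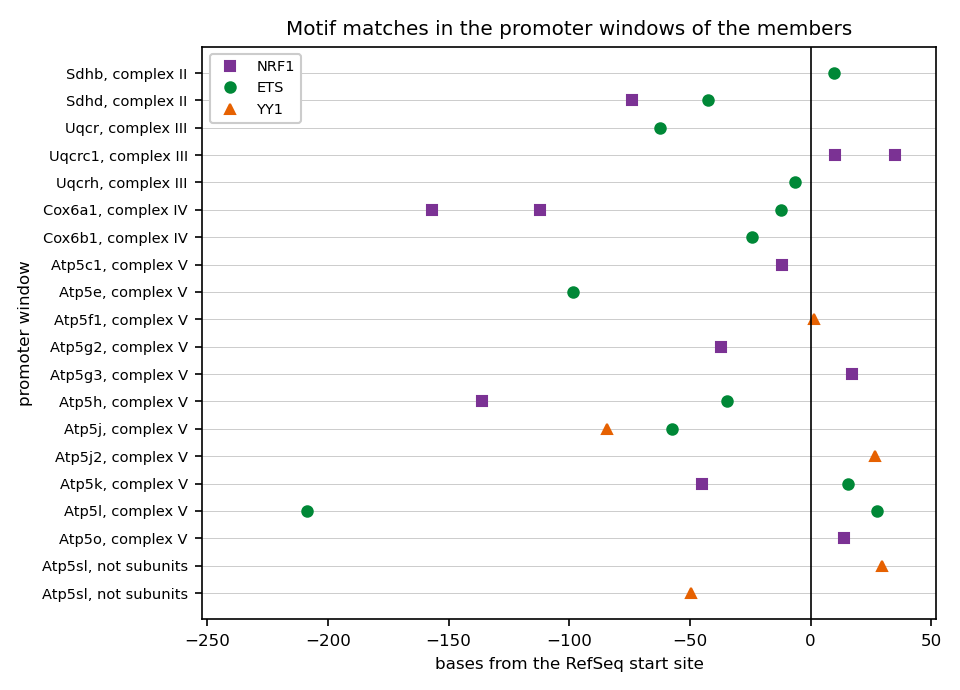
Motif matches in the promoter windows of the members. The x axis gives the distance in bases from the RefSeq start site and each row is a window with at least 1 match, grouped by complex, with squares for NRF1, circles for ETS and triangles for YY1. Of the 37 windows, 9 hold an NRF1, 11 an ETS and 5 a YY1 match, and the matches lie on both sides of the start site. The overlapping windows of Atp5sl share the same YY1 match.

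In complex II the strains did not differ at the threshold, with a median log2 fold change of 0.08 (2 probes higher, 2 lower) and of -0.03 without mouse 15. The rule matched no probe of Sdha, the flavoprotein. Sdhb, the iron-sulphur subunit, had 2 tested probes. The first read 162, 201, 199 and 197 in Nd2-mutant mice 28, 32, 34 and 35 and 118, 172, 200 and 191 in control mice 15, 16, 17 and 37. The second read 209, 228, 252 and 191 in Nd2-mutant and 105, 163, 237 and 220 in control mice, in the same order. On both probes mouse 15 was lowest and the other 7 mice overlapped. The log2 fold changes were 0.16 (SE 0.17) and 0.31 (SE 0.23, adjusted p = 0.696, limma; exact permutation p = 0.286, two-sided), and 0.01 and 0.09 without mouse 15. The probes varied together over the 8 arrays (r = 0.90, and 0.56 without mouse 15), and a further Sdhb probe and a further Sdhc probe were detected on no array.

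Sdhc and Sdhd anchor complex II in the membrane. Sdhc read 816, 687, 777 and 791 in Nd2-mutant mice and 689, 870, 738 and 809 in control mice, and its lowest value was in Nd2-mutant mouse 32, with mouse 15 next to it. Sdhd, whose promoter carries both motifs, read 100, 118, 72.0 and 83.9 in Nd2-mutant and 67.6, 125, 101 and 149 in control mice. Its log2 fold change was -0.18 (SE 0.22, adjusted p = 0.813, limma) with all mice and -0.37 (SE 0.18) without mouse 15. In the limma fit without mouse 15 its adjusted p was 0.655, and its unadjusted p of 0.0707 was the smallest of the members. Leaving out control mouse 37 instead gave a log2 fold change of -0.04. In the 3 control mice other than 15 Sdhd ranged from 101 to 149, and in Nd2-mutant mice from 72.0 to 118, so the strains still overlapped.

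In complex III the median log2 fold change was 0.04 (3 probes higher, 2 lower) and -0.08 without mouse 15. Cyc1, the haem-carrying cytochrome c1, read 476, 532, 495 and 429 in Nd2-mutant mice and 274, 448, 573 and 486 in control mice. Mouse 15 reached 63.8% of the next lowest mouse, and the log2 fold change of Cyc1 was 0.16 (SE 0.21) with it and -0.05 without it. Uqcrh, the hinge protein that docks cytochrome c, had the smallest p of the complex: it read 950, 894, 898 and 860 in Nd2-mutant and 526, 905, 768 and 815 in control mice. Its log2 fold change was 0.28 (SE 0.17, adjusted p = 0.666, limma; exact permutation p = 0.114) and 0.12 without mouse 15.

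The core proteins of complex III did not move alike in mouse 15. Uqcrc2 was lowest there, at 1429 against 1729 to 2082 in the other 7 mice. Uqcrc1 was highest there, at 1197 against 809 to 1105, and its log2 fold change of -0.19 (SE 0.14) was the lowest of the complex. Uqcr, a small subunit now named Uqcr11, ranged from 1561 to 1918 in Nd2-mutant mice and from 1711 to 2511 in control mice, with a log2 fold change of -0.18 (SE 0.16). The single probes of Uqcrfs1, the Rieske iron-sulphur protein, and of Uqcrq, a small subunit, were detected on no array and were not tested.

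Cytochrome c, the soluble carrier between complexes III and IV, had 2 Cycs probes near the detection limit. The tested one read 20.1, 23.2, 21.2 and 34.96 in Nd2-mutant mice and 10.5, 22.2, 31.1 and 49.6 in control mice, and was detected on 7 of 8 arrays. Control mice held both the lowest value (mouse 15) and the highest (mouse 37). The log2 fold change was -0.05 (SE 0.25, adjusted p = 0.957, limma) and -0.28 without mouse 15. The other probe, detected on 6 arrays, did not enter the test with all mice and had a log2 fold change of -0.15 without mouse 15.

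Complex IV gave a median log2 fold change of 0.07 (11 probes higher, 2 lower), and of -0.03 without mouse 15. Cox4i1, the general form of a regulatory subunit, had the smallest p of all members. It read 3251, 3405, 3102 and 4149 in Nd2-mutant mice and 4084, 4934, 3941 and 3750 in control mice. It was lower in 3 of the 4 Nd2-mutant mice than in any control mouse, and Nd2-mutant mouse 35 overlapped the control range. Its log2 fold change was -0.26 (SE 0.15, 95% interval -0.60 to 0.07, adjusted p = 0.648, limma; exact permutation p = 0.114), and -0.27 without mouse 15, so this value did not rest on that mouse.

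Cox5a, the second Cox6b1 probe and Cox7a2l were far lower in mouse 15 than elsewhere, at 59.0%, 59.2% and 44.3% of the next lowest mouse. Cox5a read 2550, 2889, 2445 and 2129 in Nd2-mutant and 1257, 2495, 2747 and 2570 in control mice. Cox7a2l, a relative of Cox7a2 that joins complexes III and IV into supercomplexes and of which C57BL/6 mice carry a shortened form, had the highest log2 fold change of complex IV. It read 754, 790, 640 and 636 in Nd2-mutant and 282, 702, 881 and 649 in control mice. Apart from mouse 15 the strains overlapped, and the log2 fold change went from 0.26 (SE 0.29, adjusted p = 0.796, limma) to -0.07 without it.

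For 2 genes of complex IV the probes did not follow each other. The 2 probes of Cox6b1, a subunit on the outer face of the membrane, had log2 fold changes of 0.07 and 0.17, with r = 0.68 over 8 arrays and -0.42 without mouse 15. Those of Cox6a1 had log2 fold changes of 0.23 (SE 0.14, adjusted p = 0.661, limma; exact permutation p = 0.0857) and 0.03, with r = -0.05 and 0.07. On the first Cox6a1 probe Nd2-mutant mice ranged from 1452 to 1732 and control mice from 1178 to 1494, and the value in mouse 15, 1354, was not the lowest. On the second, whose intensity in mouse 15 (2292) was the highest, the ranges were 2082 to 2256 and 1912 to 2292.

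Of the muscle forms, Cox6a2 and Cox7a1 were detected on 8 of 8 arrays in these fibroblast cultures. Cox6a2 read 106, 108, 83.9 and 141 in Nd2-mutant mice and 170, 131, 151 and 92.3 in control mice. It was highest in mouse 15, the array with the highest sum of skeletal muscle markers, and had the lowest log2 fold change of complex IV, -0.27 (SE 0.20, adjusted p = 0.706, limma) and -0.16 without that mouse. The part of muscle cells in this value was not tested. Cox7a1 ranged from 40.4 to 49.96 in Nd2-mutant and from 31.5 to 64.6 in control mice, and in mouse 15, at 40.9, it was not raised.

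The other restricted forms were near background. Cox8b, a muscle form, was detected on 1 array, and Cox6b2, a testis form, on 3 arrays by 1 probe and on none by the other. Cox4i2, the lung form, and the testis forms Cox7b2 and Cox8c were detected on no array. Among the general forms Cox7a2 (96.1 to 199), Cox7b (15.95 to 45.2), Cox5b (2266 to 3226) and Cox6c (1184 to 1593) were detected on 8 of 8 arrays, with log2 fold changes of 0.19, 0.06, 0.11 and 0.06. All 4 had their lowest value in mouse 15, and without it the log2 fold changes were 0.05, -0.07, 0.02 and 0.00. The rule matched no probe named Cox8a.

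**Figure D5:**
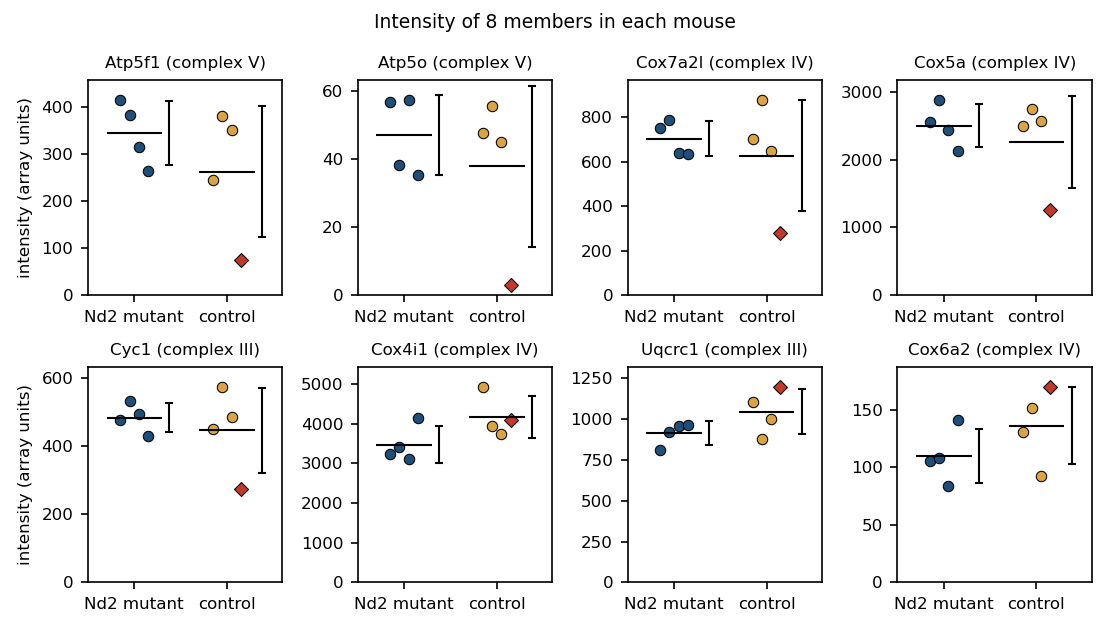
Intensity of 8 members in each mouse, 5 of them chosen for a low value in control mouse 15 and 3 for a value there that was not low. The y axes give the deposited intensity in array units, blue circles are Nd2-mutant mice, yellow circles the other control mice and the red diamond control mouse 15, with lines for the mean and bars for the SD (n = 4). The diamond is lowest for Atp5f1, Atp5o, Cox7a2l, Cox5a and Cyc1 and highest for Uqcrc1 and Cox6a2, and the strains overlap in all 8 panels.

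Complex V held the highest median log2 fold change, 0.12 (12 probes higher, 2 lower), which was 0.00 (7 higher, 7 lower) without mouse 15. Its catalytic head is built from the products of Atp5a1, Atp5b, Atp5c1, Atp5d and Atp5e. Atp5b, the catalytic beta subunit, read 8269, 7872, 8033 and 6942 in Nd2-mutant mice and 6889, 8855, 7163 and 8572 in control mice. The strains overlapped over nearly their whole range, with a log2 fold change of -0.01 (SE 0.14, 95% interval -0.32 to 0.30).

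Of the other subunits of the head, Atp5a1, the alpha subunit, ranged from 366 to 573 in Nd2-mutant and from 312 to 532 in control mice, with a log2 fold change of 0.10. Atp5c1 (gamma) and Atp5d (delta) had log2 fold changes of 0.19 and 0.00, with mouse 15 lowest on both. Atp5e (epsilon) had the lowest value of all members, -0.29 (SE 0.23, adjusted p = 0.715, limma; exact permutation p = 0.400). It read 67.9, 69.6, 46.1 and 62.9 in Nd2-mutant and 56.2, 136, 65.6 and 71.2 in control mice, so control mouse 16 alone was far above the rest. The log2 fold change of Atp5e was -0.41 without mouse 15 and -0.06 without mouse 16.

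The stalk that holds the head to the membrane contains the products of Atp5f1, Atp5h, Atp5j and Atp5o. Atp5f1, the b subunit, read 416, 383, 316 and 264 in Nd2-mutant mice and 74.0, 245, 382 and 351 in control mice. Mouse 15 reached 30.3% of the next lowest mouse, control mouse 16, and the other control values lay within the Nd2-mutant range. The log2 fold change was 0.56 (SE 0.41, 95% interval -0.34 to 1.46, adjusted p = 0.697, limma; exact permutation p = 0.371), the highest of the members, and 0.08 without mouse 15. Atp5o, the subunit that confers oligomycin sensitivity, read 56.7, 38.4, 57.6 and 35.4 in Nd2-mutant and 3.08, 47.8, 55.6 and 45.0 in control mice. It was not detected in mouse 15, and its log2 fold change of 0.37 (SE 0.37) became -0.07 without that mouse.

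Atp5j, coupling factor 6, had the smallest p of complex V. Its first tested probe read 95.8, 96.4, 126 and 115 in Nd2-mutant and 43.7, 86.6, 125 and 101 in control mice, and its second 1181, 1247, 1338 and 1329 and 635, 955, 1318 and 1213. The probes agreed over the 8 arrays (r = 0.97, and 0.84 without mouse 15), and on both, mice 15 and 16 were the lowest. Their log2 fold changes were 0.30 (SE 0.24) and 0.35 (SE 0.21, adjusted p = 0.663, limma; exact permutation p = 0.200), and 0.05 and 0.14 without mouse 15. A further Atp5j probe was detected on no array. Atp5h, the d subunit, was an exception to the pattern in mouse 15: it ranged from 476 to 608 in Nd2-mutant and from 473 to 615 in control mice, and mouse 15, at 489, was not the lowest.

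Of the membrane part, Atp5g2 and Atp5g3 encode the same ring protein. Atp5g2 ranged from 614 to 674 in Nd2-mutant and from 502 to 669 in control mice, and Atp5g3 from 6423 to 6994 and from 4857 to 6889. The log2 fold changes were 0.11 and 0.13, and 0.03 and 0.02 without mouse 15. Atp5l (subunit g) and Atp5j2 (subunit f) had log2 fold changes of 0.13 and 0.09, and all 4 of these probes were lowest in mouse 15. The probe of Atp5k (subunit e) was detected on no array, and the rule matched no probe named Atp5g1.

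The 4 probes that are not subunits gave log2 fold changes of 0.11 (Atp5s), 0.00 (Atp5sl), 0.07 and -0.27 (the 2 probes of Cox4nb). Atp5s and Atp5sl are now named Dmac2l and Dmac2. Cox4nb was the only member symbol whose tested probes differed in sign, with r = -0.13 over the 8 arrays. Of these 4 probes 1 was lowest in mouse 15.

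Genes that assemble or regulate complexes II to V were taken from a list of 40 symbols, of which 22 were on the array with 30 probes and 25 were tested. Of these, 13 were higher and 12 lower in Nd2 mutant, and with all mice none passed an adjusted or an unadjusted p under 0.05. Their median log2 fold change was 0.04, and -0.05 without mouse 15, which was lowest for 15 of the 25 probes. The closest to the threshold were Higd2a, a complex IV assembly factor (0.26, SE 0.14), and Cox10, a haem-synthesis enzyme for complex IV (-0.24, SE 0.13), with adjusted p of 0.639 and 0.648 (limma). Cox10 ranged from 528 to 658 in Nd2-mutant mice and from 620 to 707 in control mice, and its log2 fold change without mouse 15 was -0.25. Without mouse 15, 2 of 26 probes of the list passed an unadjusted p under 0.05 (7.91% of all) and none an adjusted p under 0.05. Both were lower in Nd2 mutant and are named here after their values were seen. Cox17, a copper chaperone for complex IV, had a log2 fold change of -0.40 (SE 0.14, adjusted p = 0.602, limma), and Usmg5, a small protein associated with complex V, one of -0.41 (SE 0.18, adjusted p = 0.625, limma). With all mice the values were -0.25 and -0.24, and mouse 15 was the lowest of the 8 on both.

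The 39 tested probes of nuclear subunits of complex I, the complex that holds Nd2, also gave small fold changes. Their median log2 fold change was 0.05 (23 higher, 16 lower) and -0.06 without mouse 15 (11 higher, 28 lower). The subunits of complexes II to V with cytochrome c gave 0.10 (28 higher, 9 lower) and -0.05 (16 higher, 22 lower). Of all tested probes 50.2% were higher in Nd2 mutant, and 47.9% without mouse 15. For complex I the following values are with all mice. None passed an adjusted or unadjusted p under 0.05 between the strains. The interval lay within a 2-fold change for all 39.

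The sexes were compared in a fit that also held the strain. No member probe passed an adjusted p under 0.05 (0.0192% of all tested probes), and 2 of 41 passed an unadjusted p under 0.05 (8.31% of all), namely Cox7a2l and Atp5a1. Cox7a2l was higher in males by a log2 of 0.56 (SE 0.25) and Atp5a1 by 0.39 (SE 0.17), each with an adjusted p of 0.592 (limma). Both genes were lowest in mouse 15, a female. Without that mouse the differences were 0.27 and 0.28, with adjusted p of 0.593 and 0.664 (limma), and 1 of 42 probes, that of Atp5c1, passed an unadjusted p under 0.05 (9.3% of all). Of the 41 probes, 36 were higher in males (52.4% of all), and without mouse 15 it was 22 of 42 (49.5% of all).

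The strain difference of no member probe depended on sex at the threshold. In the interaction of strain and sex, 0 of 41 probes passed an adjusted p under 0.05 (0.0096% of all) and 0 an unadjusted p under 0.05 (1.77% of all). With 2 mice of each sex and strain, such a test has little precision. Within the males alone the median log2 fold change of the members was -0.04, and within the females, where mouse 15 is 1 of the 2 control mice, it was 0.19.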

How the data were processed

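Skin fibroblast RNA of 8 mice was labelled and hybridised by the authors to 1 bead array each. The deposited intensity values had been quantile normalized and background subtracted by the authors in GenomeStudio, and a detection p-value stands beside each deposited intensity. The table named as non-normalized holds the same bytes as the normalized one, so that background correction could not be repeated. Values range from -12.3 to 13935, and 26.2% are 0 or lower. Between 10663 and 11350 probes were detected per array; with arrays, their number limits the precision.

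Negative values were set to 0, 16 was added and log2 was taken. Probes detected (p-value under 0.01) on all 4 arrays of at least 1 strain were tested with limma 3.58.1 in R 4.3.3 (lmFit, eBayes, two-sided), with Benjamini-Hochberg adjustment over 10414 probes and a threshold of 0.05. Fold changes of dim probes are understated on this scale. Single probes were also given an exact permutation test of 4 against 4 values, two-sided, whose smallest p is 0.0286. The steps were tested on simulated data. In the simulation for limma the noise was independent between probes and no array stood apart, so it does not cover an array like that of mouse 15. Arrays were grouped by strain, sex and mouse number from the labels.

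The members and the lists (assembly genes, complex I subunits, cell markers) were chosen with earlier results of these data known. Genes named were those nearest the threshold in each complex, those with the highest and lowest fold change, all Sdh genes, Cyc1, Cycs, the tissue forms, genes with discordant probes and the symbols that are not subunits; others are named for their value in control mouse 15 and were chosen after their values were seen. Alternatives were the value added, the detection filter, the linear scale, the methods' t-test, an eBayes trend, array weights, sex as a term, cyclic loess, each sex alone, 1 probe per gene and leaving out each mouse. The comparison of the sexes without mouse 15 was an addition made with the data in view. No chip was named in the files, so chip was not used as a block. One list of cell markers is not reported here.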

Additional observations from a re-analysis of the deposited data

Results flagged for a closer look

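In groups of 4 mice, 92 sets of values (41 probes and 5 means of probes, in each strain) were screened for a mouse set apart from the others, by the gap to the nearest mouse over the range of the group, and 6 exceeded the 95% critical value of Dixon's ratio. Chance alone sets apart about 1 in 20 groups, or 4.6 of 92. Of the 6, 5 were control mouse 15, low in each: Atp5l (0.914), Atp5o (0.878), Cox5a (0.877), the mean of the 41 member probes (0.98) and the mean of the complex V probes (0.974). The other was Nd2-mutant mouse 28, low on the first Sdhb probe at 162 against 197 to 201 (0.925). The means hold the same probes, so that the 6 are not independent. No member passed the test of an interaction between strain and sex.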

How the results depend on the processing

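No member probe passed an adjusted p under 0.05 under any alternative run, with a smallest adjusted p of 0.353 (without control mouse 17), and the interaction with sex gave 0 members under each of its alternatives. The count at an unadjusted p under 0.05 was 0 and became 1 on the linear scale, with no filter on detection and without control mouse 17 or 37 (0 to 1 when a mouse was left out). Leaving out a mouse moved the number of probes higher in Nd2 mutant between 18 (without mouse 15) and 32, and among the males alone 15 of 42 were higher. The median log2 fold change moved by less than the spread between mice under every alternative, from -0.05 to 0.16 over all members when a mouse was left out. That spread includes mouse 15: the SD of the mean of all members was 0.26 in control mice, but 0.0054 without mouse 15, and 0.016 in Nd2-mutant mice. The comparison therefore cannot show that the median was stable, and the sign of the median over all members turned without mouse 15. No paired analysis was possible because no mouse number occurs in both groups. Changes smaller than the 95% intervals cannot be resolved with 8 arrays. Normexp from non-normalized intensities and a block for the chip were both left undone, medians were not taken on the linear scale, and Cycs has no value with probes detected on all 8 arrays.

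The direction of single members was unstable: 28 of the 41 probes changed sign under at least 1 alternative, 11 of them with all 8 mice kept, and 13 under none. All of these changes are between values that did not pass the threshold, and the cause was not tested. With array weights, log2 fold changes turned for Atp5a1 (-0.062), Atp5d (-0.10), Atp5l (-0.016), Atp5s (-0.073), the first Cox4nb probe (-0.13), Cox5a (-0.0036), the second Cox6b1 probe (-0.029), Cox7b (-0.16), Cyc1 (-0.019) and Uqcrc2 (-0.070). Among the males alone they turned for Atp5b (0.019), Atp5d (-0.26), Atp5g2 (-0.0068), Atp5g3 (-0.0098), Atp5h (-0.059), the first Atp5j probe (-0.10), Atp5j2 (-0.075), Atp5l (-0.16), Atp5o (-0.10), Atp5sl (-0.096), the first Cox4nb probe (-0.16), the first and second Cox6b1 probes (-0.045 and -0.086), Cox6c (-0.045), Cox7a1 (-0.067), Cox7a2 (-0.14), Cox7a2l (-0.026), Cyc1 (-0.010) and the first Sdhb probe (-0.036). Among the females alone they turned for Atp5s (-0.025), the second Cox6a1 probe (-0.058), Cox7b (-0.11), Cycs (0.064), Sdhc (0.070) and Uqcr (0.0050). With 50 added before log2 Atp5sl turned (-0.0037), with cyclic loess Atp5d (-0.0073), and on the linear scale Atp5d (-23.2 intensity units) and Atp5sl (-1.51).

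Leaving out each mouse in turn gave ranges that cross 0 for Atp5a1 (-0.067 to 0.22), Atp5b (-0.072 to 0.048), Atp5d (-0.19 to 0.12), Atp5h (-0.043 to 0.10), Atp5l (-0.052 to 0.21), Atp5o (-0.070 to 0.57), Atp5sl (-0.14 to 0.098), the first Cox4nb probe (-0.12 to 0.17), Cox5a (-0.064 to 0.31), the second Cox6a1 probe (-0.019 to 0.067), the first and second Cox6b1 probes (-0.032 to 0.17 and -0.074 to 0.28), Cox6c (-0.0080 to 0.12), Cox7a1 (-0.044 to 0.21), Cox7a2l (-0.070 to 0.46), Cox7b (-0.072 to 0.24), Cyc1 (-0.052 to 0.29), Cycs (-0.28 to 0.16), Sdhc (-0.067 to 0.043) and Uqcrc2 (-0.079 to 0.10). Of these, 13 turned without control mouse 15.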
